A study of Mus musculus with 12 samples.

Results

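The 40 genes described here carry out 2 phases of the cell division cycle: 18 act in DNA replication (S-phase genes) and 22 act in G2 and mitosis (G2/M genes). They were chosen by name, as genes with a known part in one of these phases, with earlier results of these data known. All 40 were found among the 23362 genes counted in every library. All 40 also passed the filter on low counts in each of the 5 comparisons made. The lowest count of any of them in a library was 116 reads, for E2f1.

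Polyadenylated RNA was sequenced from C57BL/6 mouse cells in 12 libraries, 3 in each of 4 groups. GATA2-GMP KO and GATA2-GMP WT were granulocyte-macrophage progenitors that had been transduced with GATA2, re-sorted and kept in culture for 48 hours, from Xbp1-deficient (KO) and wild-type (WT) mice. GMP KO and GMP WT were the same progenitors sorted straight into Trizol, without transduction or culture. GMP are the precursors of granulocytes and monocytes in bone marrow. GATA2 drives eosinophil and mast cell fates, and XBP1 is the factor through which IRE1 signals protein folding stress to the nucleus. The design asks how loss of XBP1 changes transcripts at 2 stages on the way to eosinophils. RNA of GATA2-GMP went through a SMARTer Ultra Low Input kit and then TruSeq, and RNA of GMP through TruSeq alone, so stage, transduction, culture and kit cannot be told apart. Which Xbp1 allele was used and which animals the replicate numbers stand for are not in the labels, so p-values measure the spread between these libraries, which may be technical. In bulk RNA, fewer dividing cells and less of a transcript per cell cannot be told apart.

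Cells that enter the cycle first load a ring of MCM proteins onto replication origins in G1, with the help of CDC6 and CDT1, and then switch the ring into an active helicase with CDC45 and the GINS proteins. The E2F transcription factors drive many of these genes around the entry into S phase. Genes of G2 and mitosis, such as cyclin B and the mitotic kinases, are held back until later by the DREAM complex and then switched on by B-MYB and FOXM1, which act with the same MuvB core. Their promoters often carry a motif called CHR, which MuvB binds, and CCAAT boxes, the sites of NF-Y. Most mature granulocytes no longer divide, whereas their progenitors in the bone marrow do.

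The promoters of these genes were searched for the motifs of both classes. RefSeq windows (GRCm38.p6) of the 250 bases before the start of the gene were matched to 30 of the 40 genes, and they were searched on both strands for an E2F motif (TTTCCCGC, TTTGGCGC, TTTCGCGC or TTTGCCGC), for CHR (TTTGAA or TTCGAA, of which TTCGAA reads the same on both strands and was counted once) and for CCAAT. An E2F match was found in 4 of 14 S-phase windows (28.6%) and in 1 of 16 G2/M windows (6.25%), beside 1.91% of all 27018 windows. CHR was found in 3 of 14 S-phase windows (21.4%) and in 7 of 16 G2/M windows (43.8%), beside 17.4% of all windows. CCAAT was found in 9 of 14 S-phase windows (64.3%) and in 13 of 16 G2/M windows (81.2%), beside 34.5% of all windows. The 4 windows below are the S-phase and G2/M genes with the most matches of each kind among genes that passed a test here. Where genes tied, the first listed was taken: Cdc45 also had 1 CHR match, and Rrm1 also had 2 CCAAT matches. Capitals mark every match on either strand. Mcm6 (chr1:128359706-128359955, minus strand) had 3 E2F matches, of which 2 overlap, and 2 CCAAT matches. Cdk1 (chr10:69352913-69353162, minus strand) had 1 E2F, 2 CHR and 3 CCAAT matches. Mcm2 (chr6:88898781-88899030, minus strand) had 1 CHR and 1 CCAAT match. Top2a (chr11:99024190-99024439, minus strand) had 4 CHR and 6 CCAAT matches. A match describes these letters and does not show that a factor binds there.
Mcm6: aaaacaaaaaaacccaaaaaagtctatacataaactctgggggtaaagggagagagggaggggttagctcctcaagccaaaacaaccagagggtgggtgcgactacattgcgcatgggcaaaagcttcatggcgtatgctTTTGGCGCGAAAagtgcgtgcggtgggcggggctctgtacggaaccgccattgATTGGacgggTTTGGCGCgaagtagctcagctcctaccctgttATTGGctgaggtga
Cdk1: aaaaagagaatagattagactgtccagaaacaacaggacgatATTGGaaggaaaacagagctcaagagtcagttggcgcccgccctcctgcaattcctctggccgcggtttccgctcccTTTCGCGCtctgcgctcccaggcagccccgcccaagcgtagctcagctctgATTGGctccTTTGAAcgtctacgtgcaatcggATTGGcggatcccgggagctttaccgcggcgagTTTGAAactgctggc
Mcm2: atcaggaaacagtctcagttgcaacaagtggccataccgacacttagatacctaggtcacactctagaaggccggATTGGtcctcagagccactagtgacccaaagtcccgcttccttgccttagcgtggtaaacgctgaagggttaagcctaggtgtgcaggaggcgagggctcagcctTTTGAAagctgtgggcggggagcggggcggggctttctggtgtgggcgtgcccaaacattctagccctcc
Top2a: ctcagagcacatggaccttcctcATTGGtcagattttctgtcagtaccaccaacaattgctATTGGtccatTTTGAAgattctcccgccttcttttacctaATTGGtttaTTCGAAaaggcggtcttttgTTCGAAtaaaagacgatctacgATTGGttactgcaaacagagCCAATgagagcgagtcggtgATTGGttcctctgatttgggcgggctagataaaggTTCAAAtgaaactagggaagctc

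Library totals ran from 8219366 to 33640911 reads in genes, so that 1 CPM (a count relative to library size, scaled by TMM over all 12 libraries) stood for 11.2 to 43.5 reads. Xbp1 itself had 99.9, 122 and 128 CPM in GATA2-GMP KO, against 381, 269 and 197 in GATA2-GMP WT, and 89.8, 55.9 and 56.8 in GMP KO, against 131, 133 and 153 in GMP WT. Every KO library was thus below every WT library of its stage, although the adjusted p of edgeR's quasi-likelihood test was 0.0959 in GATA2-GMP and 0.0919 in GMP. Both stages held the markers of their labels: 8 of 8 GMP markers summed to 4466 to 9145 CPM in GATA2-GMP and 22563 to 28721 CPM in GMP, and the 9 of 10 eosinophil lineage markers that were found summed to 56658 to 68699 CPM in GATA2-GMP KO, 135220 to 205244 in GATA2-GMP WT, 326 to 635 in GMP KO and 89.9 to 265 in GMP WT. Gata2 is among these 9, so part of that sum in GATA2-GMP may come from the transduced gene. No sum without Gata2 was made. The 10 later neutrophil markers summed to 36703 to 72332 CPM in GATA2-GMP and 23.6 to 144 in GMP, where Retnlg was at 0 in all WT libraries. The 8 mast cell and basophil markers summed to 3846 to 12669 CPM in GATA2-GMP and 110 to 135 in GMP, and the 9 monocyte markers to 483 to 1043 in GATA2-GMP and 799 to 1264 in GMP. The 9 lymphoid markers summed to 6.27 to 38.8 CPM in GATA2-GMP and at most 0.357 in GMP, with Pax5 and Ncr1 at 0 in all libraries. The 8 stem cell markers summed to 27.7 to 92.9 CPM and the 10 erythroid and megakaryocyte markers to 16.5 to 60.9 CPM over all 12 libraries, with Hba-a1 at 0. The part of these cell types in the results below was not tested.

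The GATA2-GMP libraries stood apart from one another in a way that followed neither genotype. The slope on log2 transcript length of each library's log2 levels, taken relative to the mean of its stage over 11596 genes other than the 40 and with GC content in the same regression, was positive in GATA2-GMP KO 1, KO 2 and WT 3 (0.116, 0.117 and 0.22) and negative in GATA2-GMP KO 3, WT 1 and WT 2 (-0.199, -0.098 and -0.156). It lay between -0.027 and 0.029 in the 6 GMP libraries. These sets of 3 libraries did not overlap in 22 of the 40 genes (55.0%), beside 35.8% of the 11699 genes tested. Mcm3 differed by 0.93 between the sets (log2, positive slope minus negative), Mcm5 by 0.88, E2f1 by 1.26 and Bub1b by 1.06, whereas Mad2l1 differed by -0.82, Cenpa by -0.76 and Cdk1 by -0.71. Genotype values in GATA2-GMP are therefore given within each set as well.

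**Figure D1:**
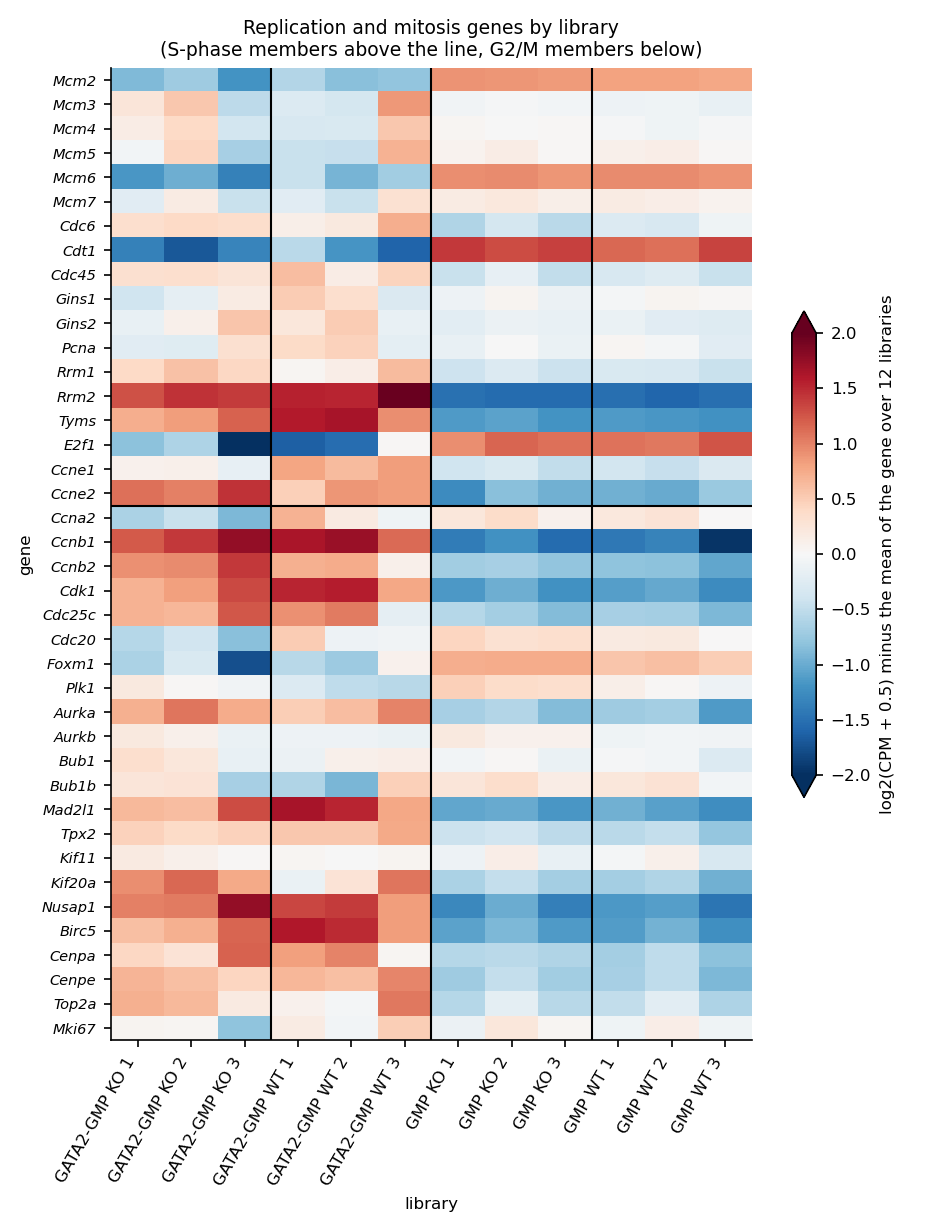
Each row is 1 of the 40 genes, ordered by role, and each column is 1 of the 12 libraries, with GATA2-GMP KO and WT left of GMP KO and WT; colour is log2(CPM + 0.5) minus the gene's mean over the 12 libraries. Rrm2, Tyms, Ccnb1, Cdk1, Mad2l1 and Nusap1 are high in every GATA2-GMP library, Mcm2, Mcm6 and Cdt1 are low there, and the GATA2-GMP columns differ among themselves more than the GMP columns do.

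Levels per length set some subunits of the helicase at the top in freshly sorted progenitors. In GMP WT, Mcm5, Mcm3 and Mcm6 had 163, 160 and 157 CPM per kilobase of their longest transcript. Top2a, the topoisomerase that untangles sister chromatids, had 129, and the other subunits Mcm2, Mcm7 and Mcm4 had 124, 93.7 and 91.9. The lowest there were Ccne2 (7.92 CPM per kilobase), Cdc25c (7.93), Ccne1 (9.85) and Ccnb1 (11.3). In GATA2-GMP the order was another: Rrm2, the small subunit of ribonucleotide reductase, had 637 CPM per kilobase in KO and 794 in WT. Top2a had 251 in KO and 238 in WT, and Mad2l1, a spindle checkpoint protein, had 213 in KO and 296 in WT. The lowest were E2f1 (6.49 in KO, 7.54 in WT), Foxm1 (7.10 in KO, 9.53 in WT) and Cdt1 (9.63 in KO, 12.8 in WT). Replicates were tighter in GMP than in GATA2-GMP: the median coefficient of variation of the S-phase genes was 16.8% in GATA2-GMP KO, 23.8% in GATA2-GMP WT, 4.35% in GMP KO and 4.32% in GMP WT. For the G2/M genes it was 19.0%, 24.0%, 8.03% and 9.56% in the same order of groups. The highest values were those of Foxm1 (45.7%) and E2f1 (45.3%) in GATA2-GMP KO and of E2f1 (71.7%) in GATA2-GMP WT.

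In freshly sorted GMP 1 mitotic kinase gene rose with the loss of Xbp1, and no replication gene passed the test. Plk1 encodes polo-like kinase 1, which drives entry into mitosis, centrosome maturation and cytokinesis, and it lies on the plus strand at chr7:129302951-129313389 (mm9). It had 72.2, 66.8 and 65.8 CPM in GMP KO, against 56.5, 52.5 and 48.3 CPM in GMP WT. All 3 KO libraries were above all 3 WT libraries. The log2 fold change was 0.37 (SE 0.067), or 1.29-fold, with an adjusted p of 0.00868 (edgeR's quasi-likelihood test, Benjamini-Hochberg over all genes). It held in 6 of 6 fits that left out a library, with log2 fold changes of 0.32 to 0.42, but not when all 12 libraries shared 1 fit, where the adjusted p was 1.

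That single call among 40 genes compares with 3.17% of the 12002 genes tested (0.658% higher and 2.52% lower), so the count is close to the share over all genes. Groups did not overlap for 9 of the 40 genes, beside 19.4% of all genes, which is near that share too. In 8 of these, namely Mcm2, Mcm3, Mcm4, Ccnb2, Cdc20, Foxm1, Plk1 and Aurkb, the KO libraries were the ones above (11.3% of all genes); in Cdc6 they were below (8.09% of all genes).

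In GMP, deviations of libraries of the same replicate number correlated weakly (0.264, 0.193 and 0.127), as read from these same counts and not from the labels. This does not show that these libraries were paired. The fit with a replicate block is reported on that ground, so its calls are not independent of that choice. It called 4 of the 40 genes, beside 8.03% of all genes tested (3.3% higher and 4.73% lower). Besides Plk1 (log2 fold change 0.36, adjusted p 0.000335 with the block), these were Aurkb, Cdc20 and Cdc6. Aurkb, the kinase of the chromosomal passenger complex, which corrects faulty attachments to the spindle (chr11:68859149-68865166, mm9, plus strand), had 143, 132 and 132 CPM in GMP KO, against 116, 119 and 119 in GMP WT. Its log2 fold change was 0.19 (SE 0.0546), with an adjusted p of 0.108 without the block and 0.0276 with it. The KO libraries were above the WT libraries by more than the spread within either group.

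Cdc20, the activator of the anaphase-promoting complex, which starts the destruction of securin and cyclin B (chr4:118105506-118109957, mm9, minus strand), had 87.9, 80.3 and 82.8 CPM in GMP KO, against 73.7, 74.8 and 65.9 in GMP WT. Its log2 fold change was 0.21 (SE 0.0658), with an adjusted p of 0.132 without the block and 0.0346 with it. Its exons overlap those of Elovl1 on the other strand, and with the strand setting not stated its counts are uncertain. Cdc6, which helps to load the MCM ring (chr11:98769115-98785254, mm9, plus strand), had 67.1, 79.7 and 69.9 CPM in GMP KO, against 84.1, 81.7 and 96.1 in GMP WT. It was the only one of the 4 that lay below WT: its log2 fold change was -0.29 (SE 0.0812), with an adjusted p of 0.0958 without the block and 0.0140 with it. DESeq2 called Cdc6 as well, at an adjusted p of 0.0309, along with Plk1 and 4.09% of all genes tested.

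Of the members not called in GMP, no S-phase gene had an adjusted p under 0.0958 and no G2/M gene one under 0.108. The S-phase genes had log2 fold changes from -0.29 to 0.14 with a median of -0.02, and the G2/M genes from -0.02 to 0.37 with a median of 0.06, beside a median of 0.006 over all genes. By role the medians were 0.04 for the MCM helicase, -0.03 for origin licensing and firing, -0.02 for clamp and nucleotide supply, -0.08 for the G1/S regulators, 0.15 for cyclins, CDK1 and its regulators, 0.09 for mitotic kinases and checkpoint and 0.05 for spindle and chromosome proteins. Of the 22 G2/M genes, 21 had a positive log2 fold change, as did 6220 of the 12002 genes tested. Members share the same 6 libraries, so these counts describe them and are not a test. The G2/M median also rests on single libraries: it was -0.0060 without GMP WT 3 and 0.144 without GMP WT 2.

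**Figure D2:**
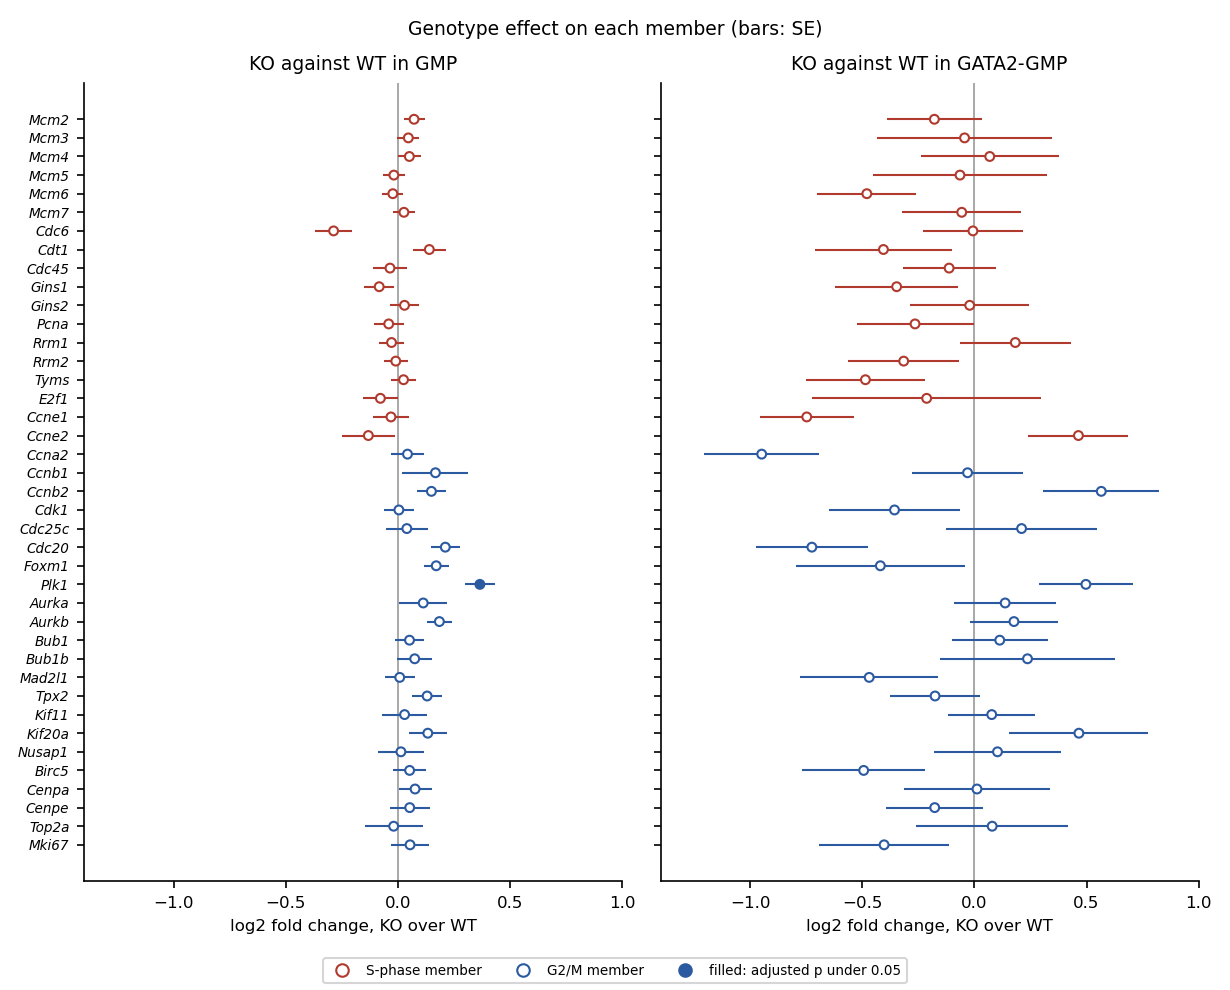
Log2 fold changes of KO over WT for the 40 genes by role, in GMP on the left and in GATA2-GMP on the right; bars are 1 SE, filled points passed the test at an adjusted p of 0.05 and open points did not. Plk1 is the filled point in GMP; no point is filled in GATA2-GMP, where the bars are several times wider.

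Other genes of the same pathways were counted from 4 lists. Over all genes tested in GMP 0.658% were called higher and 2.52% lower. With the replicate block these shares were 3.3% and 4.73%. Of 48 other replication genes none was called in GMP KO against WT (median log2 fold change -0.05), and the replicate block added Pold2, a subunit of DNA polymerase delta, which had 81.9 ± 5.32 CPM in GMP KO and 95.1 ± 2.52 in GMP WT (SD, n = 3 each; -0.22, edgeR adjusted p 0.0126 with the block). Of 53 other mitosis genes 2 rose and none fell (median 0.09), and with the block 7 rose and 1 fell. Gtse1, a microtubule-binding protein of G2, had 45.6 ± 2.39 CPM in GMP KO and 35.9 ± 3.12 in GMP WT (SD, n = 3 each). Its log2 fold change was 0.32 (SE 0.0781, edgeR adjusted p 0.0441). Racgap1, which acts in cytokinesis, had 122 ± 4.09 CPM in GMP KO and 102 ± 5.26 in GMP WT (SD, n = 3 each; 0.24, SE 0.0590, edgeR adjusted p 0.0465). Called with the block alone were, among others, Ube2c, the E2 enzyme of the anaphase-promoting complex (0.38, edgeR adjusted p 0.0203), and Cks1b, which binds CDKs (-0.25, edgeR adjusted p 0.0123).

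Among 26 tested G1 cyclins, CDKs, pocket proteins and E2F and MYC genes 2 rose in GMP KO and none fell (median -0.02). Over all genes tested 0.658% rose and 2.52% fell, or 3.3% and 4.73% with the replicate block. E2f2, an activator of S-phase genes, had 22.5 ± 1.64 CPM in GMP KO and 16.6 ± 1.51 in GMP WT (SD, n = 3 each; log2 fold change 0.41, SE 0.0970, edgeR adjusted p 0.0384). Mybl2, which encodes B-MYB, had 87.9 ± 6.53 CPM in GMP KO and 70.5 ± 2.72 in GMP WT (SD, n = 3 each; 0.30, SE 0.0733, edgeR adjusted p 0.0441). Each of these 4 called genes was called in 1 of the 6 fits that left out a library. Of 14 tested CDK inhibitors and antiproliferative genes none was called (median -0.04), and with the block Gadd45b rose (0.29, edgeR adjusted p 0.0142) while Btg1 (-0.33, edgeR adjusted p 0.0239) and Sesn1 (-0.26, edgeR adjusted p 0.0115) fell.

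**Figure D3:**
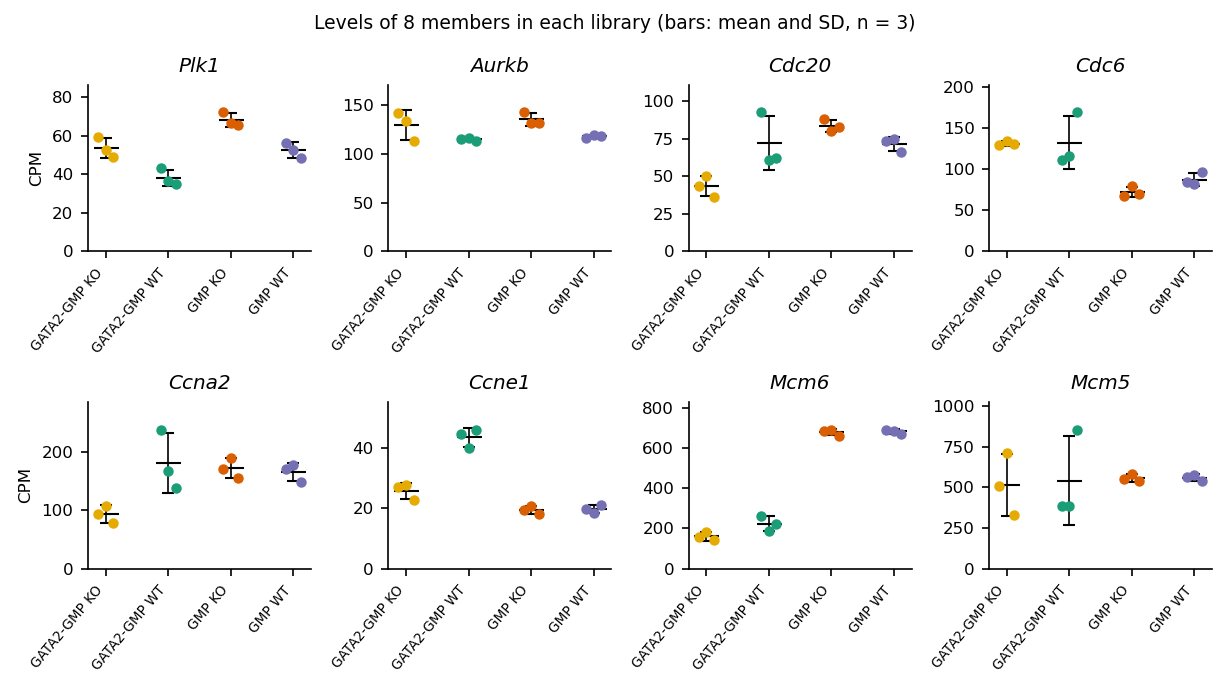
CPM in each library (points) with the group mean and SD (bar) for Plk1, Aurkb, Cdc20, Cdc6, Ccna2, Ccne1, Mcm6 and Mcm5, groups in the order GATA2-GMP KO, GATA2-GMP WT, GMP KO and GMP WT. Plk1 is above WT in all KO libraries of both stages, Cdc20 is above WT in GMP KO and below WT in GATA2-GMP KO, and Mcm5 spreads from 332 to 855 CPM within GATA2-GMP.

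In GATA2-GMP no member passed the test between KO and WT, beside 44 of 11699 genes (0.376%), of which 12 (0.103%) were higher and 32 (0.274%) lower. At an unadjusted p under 0.05 there were 4 members, beside 14.9% of all genes. DESeq2 called 2, Ccna2 and Ccne1, beside 4.85% of all genes. Groups did not overlap for 9 of the 40 genes, close to the share over all genes (22.6%): the KO libraries were above in Ccne2, Ccnb2 and Plk1 (10.2% of all genes) and below in Mcm6, Rrm2, Ccne1, Ccna2, Cdc20 and Tpx2 (12.3% of all genes). The S-phase genes had a median log2 fold change of -0.15, with 15 of 18 negative, and the G2/M genes a median of 0.04, beside -0.005 over all genes. The median SE of the members was 0.26, against which differences of this size cannot be told from the spread between libraries.

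Of the members Ccna2 and Ccne1 lay furthest from WT. Ccna2, cyclin A2, which acts in S phase and again in G2, had 93.7, 108 and 78.3 CPM in GATA2-GMP KO, against 238, 166 and 137 in GATA2-GMP WT. Its log2 fold change was -0.95 (SE 0.257, edgeR adjusted p 0.150), and without GATA2-GMP WT 3 it was -1.12 with an adjusted p of 0.0338. The difference was -0.45 among the libraries with a positive length slope (KO 1 and 2 against WT 3) and -1.34 among the others (KO 3 against WT 1 and 2). Its exons overlap those of Exosc9 on the other strand, so its counts are uncertain.

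Ccne1, cyclin E1, the partner of CDK2 at the entry into S phase, had 27.1, 27.6 and 22.7 CPM in GATA2-GMP KO, against 44.5, 39.8 and 46.0 in GATA2-GMP WT. Its log2 fold change was -0.75 (SE 0.210, edgeR adjusted p 0.155), and it was -0.74 and -0.88 within the positive and negative sets. No KO library came near a WT library, and neither set of libraries altered that. Cyclin E2 lay the other way: Ccne2 had 97.0, 90.4 and 123 CPM in GATA2-GMP KO, against 62.7, 83.1 and 80.0 in GATA2-GMP WT (log2 fold change 0.46, edgeR adjusted p 0.378; 0.23 and 0.77 within the sets).

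Cdc20 had 43.8, 49.9 and 36.4 CPM in GATA2-GMP KO, against 92.6, 60.8 and 62.1 in GATA2-GMP WT, with a log2 fold change of -0.73 (SE 0.248, edgeR adjusted p 0.229) and -0.41 and -1.04 within the sets. Plk1 had 59.4, 52.5 and 49.2 CPM in GATA2-GMP KO, against 43.1, 36.3 and 35.1 in GATA2-GMP WT, with a log2 fold change of 0.50 (SE 0.210, edgeR adjusted p 0.313) and 0.66 and 0.31 within the sets. Ccnb2, cyclin B2, had 262, 267 and 369 CPM in GATA2-GMP KO, against 227, 232 and 149 in GATA2-GMP WT, with a log2 fold change of 0.57 (edgeR adjusted p 0.347) and 0.83 and 0.68 within the sets. These genes kept their sign in both sets of libraries, but none passed the test.

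With the length slope of each library as a covariate, a fit chosen after the data were seen, 8 members passed, beside 13% of all genes (5.57% higher and 7.44% lower). Those that fell in KO were Ccna2 (-0.92, edgeR adjusted p 0.0218), Ccne1 (edgeR adjusted p 0.0143), Cdc20 (edgeR adjusted p 0.0455), Tyms, which makes thymidylate (-0.41, edgeR adjusted p 0.0342), Mad2l1 (-0.40, edgeR adjusted p 0.0386), Birc5, the survivin subunit of the chromosomal passenger complex (-0.42, edgeR adjusted p 0.0339), and Mki67, the proliferation antigen Ki-67 (-0.48, edgeR adjusted p 0.0390). Ccnb2 rose (0.62, edgeR adjusted p 0.00650), and Plk1 did not pass (edgeR adjusted p 0.0622). None of the 4 other pathway lists held a called gene in GATA2-GMP without that covariate, beside 0.376% of all genes tested. The median log2 fold change was -0.04 over 48 replication genes and -0.05 over 53 mitosis genes. It was -0.27 over 27 G1 cyclins, CDKs, pocket proteins, E2F and MYC genes and -0.10 over 16 CDK inhibitors and antiproliferative genes.

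Whether the effect of Xbp1 loss differed between the stages was tested as an interaction over all 12 libraries, which called 11 of 12803 genes (0.0859%; 0.0312% positive and 0.0547% negative) and no member. At an unadjusted p under 0.05 there were 5 members, beside 14.9% of all genes. DESeq2 called 3, namely Ccna2, Ccne1 and Cdc20 (adjusted p of 0.0129, 0.000288 and 0.00687), beside 6.2% of all genes. The KO-over-WT log2 fold change was lower in GATA2-GMP than in GMP by 1.01 for Ccna2 (-1.01, SE 0.278, edgeR adjusted p 0.122), by 0.95 for Cdc20 (-0.95, SE 0.250, edgeR adjusted p 0.112) and by 0.73 for Ccne1 (-0.73, SE 0.200, edgeR adjusted p 0.121). For Plk1 it differed by 0.11 (SE 0.195, edgeR adjusted p 0.854). Without GATA2-GMP WT 3 the interaction passed for Ccna2 (-1.17, adjusted p 0.0147), Cdc20 (-1.05, adjusted p 0.0221), Ccne1 (-0.69, adjusted p 0.0484) and Tyms (-0.73, adjusted p 0.0347), so these calls depended on that library.

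Between the stages most genes differed: 78.6% of 12438 genes tested were called in GATA2-GMP against GMP in KO (38.6% higher and 40% lower), and 70.5% of 12251 in WT (34.1% higher and 36.4% lower). Members were called at a like rate, 28 of 40 in KO and 26 of 40 in WT, so the count of calls says nothing particular about them. Nor does the count of members whose groups did not overlap: in KO these were 20 higher and 8 lower, beside 82.4% of all genes (39.6% higher and 42.7% lower), and in WT 20 higher and 7 lower, beside 77.2% of all genes (35.8% higher and 41.4% lower). The direction by phase describes them better. Of the 22 G2/M genes 13 were higher and 4 lower in GATA2-GMP KO than in GMP KO, and 13 were higher and 2 lower in GATA2-GMP WT than in GMP WT. Of the 18 S-phase genes 7 were higher and 4 lower in either genotype. The median log2 fold change was 1.09 in KO and 1.23 in WT for the G2/M genes, 0.15 in KO and 0.32 in WT for the S-phase genes, and -0.05 in KO and -0.09 in WT over all genes tested. With upper quartile scaling in place of TMM the median of all genes was -0.20 in KO and -0.28 in WT, and that of the S-phase genes was -0.01 in KO, where it changed sign, and 0.13 in WT. The KO and WT comparisons use different libraries, and the 7 S-phase genes that rose and the 4 that fell were the same genes in both.

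The kits differ between the stages, and the size of a fold change moved with the base composition and length of the transcript. In WT the median log2 fold change over all genes was 1.12 in the shortest sixth of transcripts (up to 1560 bases) and -0.78 in the longest, and 0.39 in the sixth with the lowest GC content and -1.50 in that with the highest. In KO it was 1.16 and -0.76 by length, and 0.56 and -1.66 by GC content. Across the 40 members, which share the libraries, the fold change followed GC content with Pearson's r = -0.633 in KO and -0.601 in WT (Spearman's rho -0.572 and -0.563) and followed length with -0.0863 in KO and -0.101 in WT. Kit and stage cannot be told apart in this. Stage values are therefore also given from a fit with an offset for GC content and length, which was chosen after the data were seen. The offset weakened the relation with GC content but did not remove it: with it the 40 members had r = -0.35 in KO and -0.34 in WT. The relation with length changed sign and became larger with the offset, at r = 0.30 in KO and 0.322 in WT. Offset values of short and long members therefore carry a length relation that the fit without it did not have to that degree. With the offset 75.9% of all genes were called in KO and 68.4% in WT. The median of the G2/M genes was then 0.46 in KO and 0.73 in WT, that of the S-phase genes 0.05 in KO and 0.18 in WT, and that of all genes -0.14 in KO and -0.13 in WT.

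**Figure D4:**
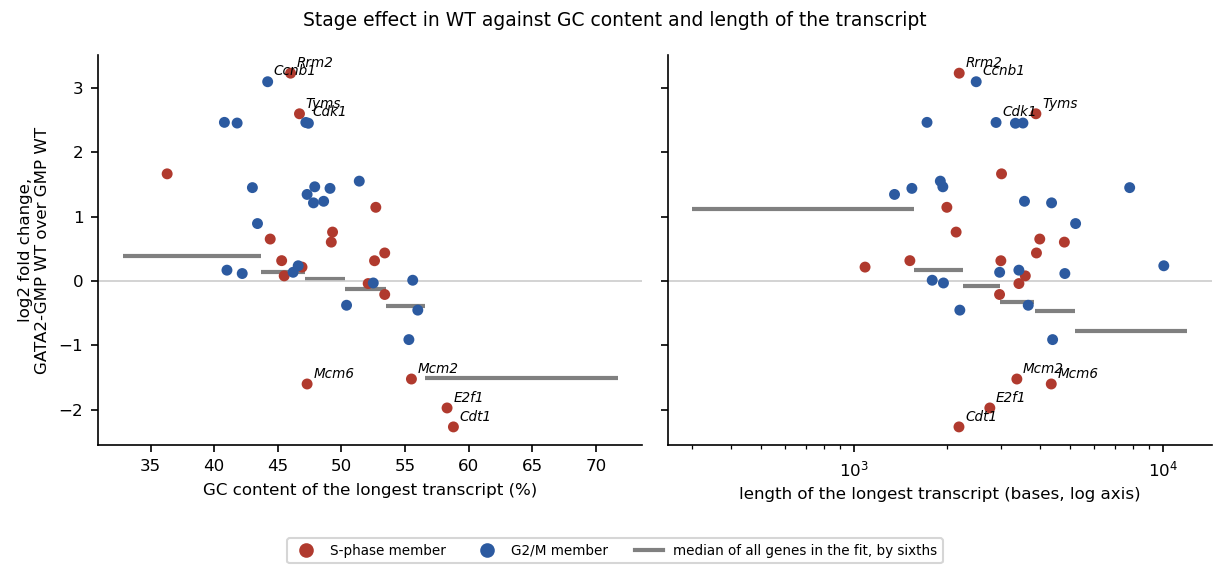
Log2 fold change of GATA2-GMP over GMP in WT against GC content (left) and length (right, log axis) of the longest transcript, for S-phase and G2/M genes; the bars are the median over all genes in sixths of each property. Members of low GC content such as Ccne2 and Mad2l1 lie high, and those of high GC content such as Cdt1, E2f1 and Foxm1 lie low. The median of all genes runs in the same direction. Other members of low GC content, Bub1 (0.17) and Kif11 (0.12), and Cdc20 (0.01) of high GC content lie in between.

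Among the replication genes the helicase did not move as 1 unit. Mcm6 fell most: it had 159, 182 and 140 CPM in GATA2-GMP KO, against 685, 687 and 661 in GMP KO, and 263, 187 and 221 in GATA2-GMP WT, against 691, 686 and 669 in GMP WT. The log2 fold change of Mcm6 was -2.07 in KO (SE 0.151, edgeR adjusted p 2.79e-06) and -1.60 in WT (SE 0.178, edgeR adjusted p 0.000108). With the offset it was -1.93 and -1.36. Mcm6 lies on the minus strand at chr1:130228168-130256233 (mm9), and its promoter window is printed above. Mcm2 fell too, to 131, 148 and 105 CPM in GATA2-GMP KO, against 450, 448 and 436 in GMP KO, and to 160, 136 and 139 in GATA2-GMP WT, against 421, 422 and 414 in GMP WT. For Mcm2 the log2 fold change was -1.79 in KO (SE 0.159, edgeR adjusted p 8.85e-06) and -1.52 in WT (SE 0.151, edgeR adjusted p 5.97e-05), or -0.93 and -0.70 with the offset.

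The 4 other subunits of the same hexamer did not pass in either genotype. Mcm3 had a log2 fold change of 0.21 in KO and 0.32 in WT (edgeR adjusted p 0.449 and 0.408), Mcm4 0.08 in both (edgeR adjusted p 0.707 and 0.784), Mcm5 -0.10 and -0.04 (edgeR adjusted p 0.717 and 0.920) and Mcm7 -0.31 and -0.21 (edgeR adjusted p 0.125 and 0.399). With the offset none of the 4 passed either: the values in KO and WT were 0.33 and 0.41 for Mcm3, -0.20 and -0.11 for Mcm4, 0.08 and 0.12 for Mcm5 and -0.04 and 0.03 for Mcm7. Their GATA2-GMP libraries were far apart, with Mcm5 at 505, 712 and 332 CPM in GATA2-GMP KO, against 551, 584 and 537 in GMP KO, and at 386, 384 and 855 in GATA2-GMP WT, against 564, 577 and 536 in GMP WT. Mcm5 and Mcm3 followed the length slope of the libraries, and without GATA2-GMP WT 3 Mcm5 (-0.44) and Mcm7 (-0.36) passed as lower in WT. Without GATA2-GMP KO 3 Mcm3 (0.43) and Mcm4 (0.24) passed as higher in KO, and without GATA2-GMP KO 2 Mcm7 (-0.49) passed as lower. The exons of Mcm7 overlap those of 4 other genes, and its counts are uncertain.

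Of the licensing and firing genes, both loaders of the MCM ring were called, in opposite directions. Cdt1 (chr8:125091915-125097028, mm9, plus strand) had 22.6, 17.6 and 23.0 CPM in GATA2-GMP KO, against 155, 145 and 151 in GMP KO, and 39.9, 25.4 and 18.8 in GATA2-GMP WT, against 130, 126 and 149 in GMP WT. This was a log2 fold change of -2.83 in KO (SE 0.152, edgeR adjusted p 5.76e-07) and -2.27 in WT (SE 0.277, edgeR adjusted p 0.000185), or -1.53 and -1.15 with the offset. Cdc6 had 129, 134 and 130 CPM in GATA2-GMP KO and 111, 117 and 169 in GATA2-GMP WT, beside the GMP values above. It rose by 0.87 in KO (SE 0.127, edgeR adjusted p 0.000187) and by 0.61 in WT (SE 0.199, edgeR adjusted p 0.0255), or by 1.29 and 1.06 with the offset, and its WT call was lost when any 1 of the GMP WT libraries was left out (edgeR adjusted p 0.0548 to 0.103).

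Cdc45, which joins the MCM ring in the active helicase, rose by 0.67 in KO (SE 0.135, edgeR adjusted p 0.00143) and 0.76 in WT (SE 0.170, edgeR adjusted p 0.00415), but its values were 0.09 and 0.23 with the offset; its exons overlap those of Ufd1l. Gins1 and Gins2, subunits of the GINS complex of that helicase, did not pass: Gins1 had -0.06 in KO and 0.22 in WT (edgeR adjusted p 0.751 and 0.406) and Gins2 0.37 and 0.44 (edgeR adjusted p 0.0974 and 0.0776). With the offset Gins1 fell, by 1.95 in KO (-1.95, edgeR adjusted p 1.01e-06) and 1.67 in WT (-1.67, edgeR adjusted p 3.88e-05), and Gins2 rose (0.99 and 1.04, edgeR adjusted p 0.00457 and 0.00880). Gins1 has a short transcript (1087 bases) and Gins2 a longer one (3900 bases, with exons that overlap Gse1), and the sign of Gins1 depends on the offset, whereas Gins2 was positive in both fits. Without GATA2-GMP WT 3 Gins1 (0.51) and Gins2 (0.69) passed as higher in WT. In KO Gins1 passed as lower without GATA2-GMP KO 3 (-0.26), and Gins2 as higher without GATA2-GMP KO 1 (0.51).

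Genes of nucleotide supply rose. Rrm2 (chr12:25393106-25399011, mm9, plus strand) had 1304, 1469 and 1415 CPM in GATA2-GMP KO, against 192, 184 and 184 in GMP KO, and 1571, 1546 and 2109 in GATA2-GMP WT, against 189, 180 and 190 in GMP WT. This was a 7.52-fold rise in KO (log2 2.91, SE 0.149, edgeR adjusted p 4.36e-07) and a 9.40-fold rise in WT (log2 3.23, SE 0.205, edgeR adjusted p 8.89e-06), with 2.10 and 2.51 on the log2 scale after the offset. No value of a GATA2-GMP library came near one of a GMP library. Tyms had 287, 309 and 392 CPM in GATA2-GMP KO, against 78.8, 81.8 and 75.0 in GMP KO, and 518, 541 and 328 in GATA2-GMP WT, against 78.7, 76.5 and 74.2 in GMP WT. It rose by 2.07 in KO (SE 0.159, edgeR adjusted p 3.92e-06) and by 2.60 in WT (SE 0.225, edgeR adjusted p 3.44e-05), or by 2.02 and 2.66 with the offset, and its exons overlap those of Gm17448.

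Rrm1, the large subunit of the reductase, rose less, by 0.85 in KO (SE 0.141, edgeR adjusted p 0.000433) and by 0.65 in WT (SE 0.202, edgeR adjusted p 0.0194), or by 0.60 and 0.50 with the offset, and the WT call was lost when any 1 GMP WT library was left out (edgeR adjusted p 0.0657 to 0.0895). Pcna, the sliding clamp of the replicative polymerases, had 132, 130 and 194 CPM in GATA2-GMP KO, against 139, 154 and 141 in GMP KO, and 202, 212 and 135 in GATA2-GMP WT, against 159, 151 and 132 in GMP WT. It did not pass (0.08 in KO and 0.32 in WT, edgeR adjusted p 0.698 and 0.196). With the offset it was lower, by -1.49 in KO and -1.19 in WT (edgeR adjusted p 8.41e-07 and 6.20e-05), and without GATA2-GMP WT 3 it passed as higher in WT (0.59).

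The regulators of the entry into S phase split as well. E2f1 (chr2:154385143-154395628, mm9, minus strand) had 20.8, 24.1 and 8.71 CPM in GATA2-GMP KO, against 71.7, 84.0 and 80.4 in GMP KO, and 11.7, 12.7 and 37.9 in GATA2-GMP WT, against 79.3, 78.1 and 89.2 in GMP WT. It fell by 2.13 in KO (-2.13, SE 0.319, edgeR adjusted p 0.000247) and by 1.97 in WT (-1.97, SE 0.441, edgeR adjusted p 0.00431). Its transcript has 58.3% GC, and with the offset it was -0.68 in KO (edgeR adjusted p 0.0450) and -0.62 in WT (edgeR adjusted p 0.225). Ccne2 rose by 2.24 in KO (SE 0.180, edgeR adjusted p 5.36e-06) and by 1.67 in WT (SE 0.180, edgeR adjusted p 9.38e-05), or by 1.13 and 0.76 with the offset. It had 18.5, 24.7 and 22.7 CPM in GMP KO and 22.9, 21.9 and 26.7 in GMP WT, below all GATA2-GMP libraries given above; its exons overlap those of Ints8. Ccne1 rose by 0.42 in KO (SE 0.147, edgeR adjusted p 0.0260) and by 1.15 in WT (SE 0.158, edgeR adjusted p 0.000324). With the offset these were 0.02 and 0.71, and the KO call was lost in 4 of the 6 fits that left out a library (edgeR adjusted p 0.0556 to 0.124).

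**Figure D5:**
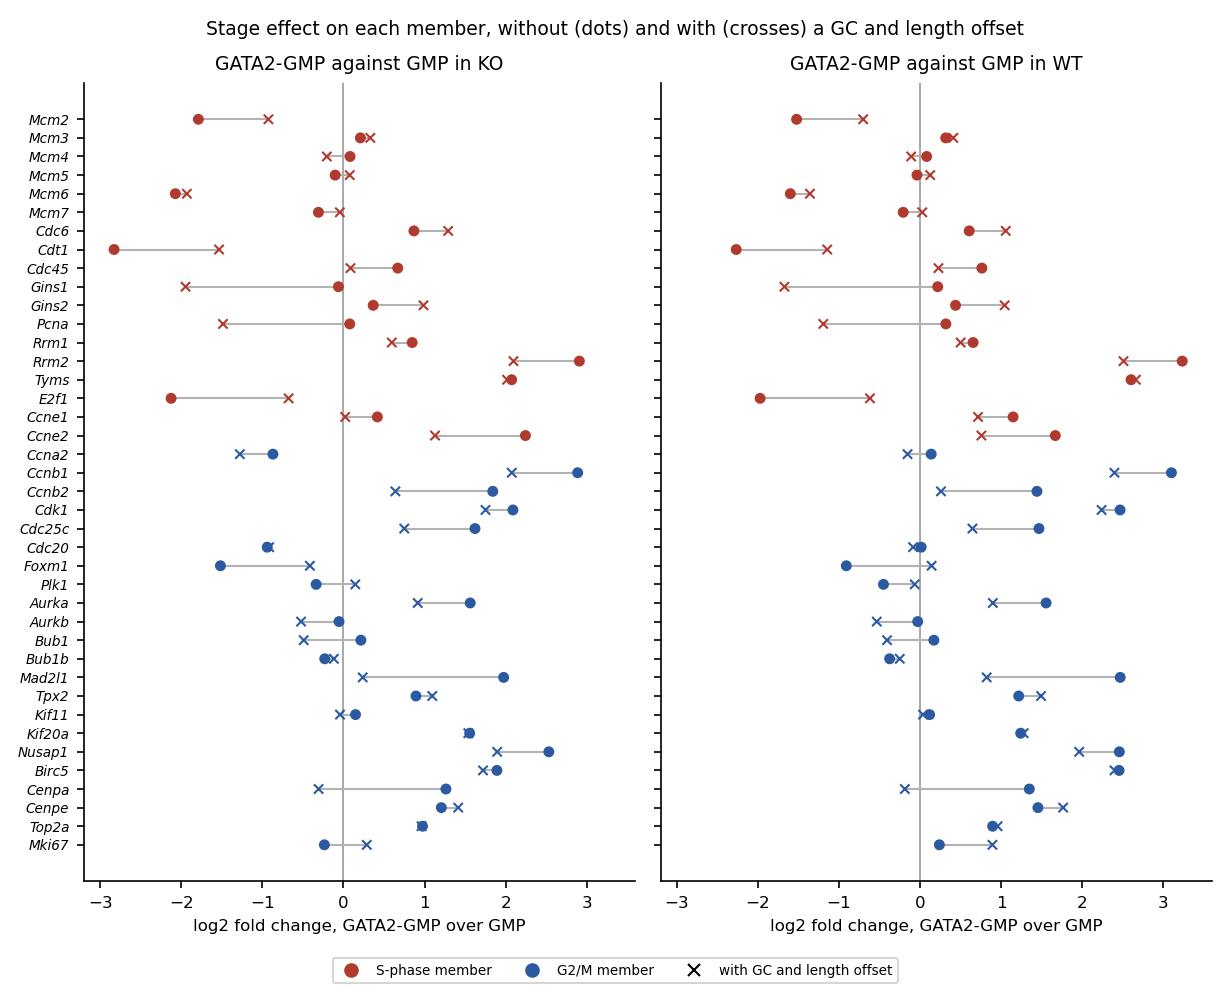
Log2 fold changes of GATA2-GMP over GMP for the 40 genes by role, in KO on the left and in WT on the right; dots are the fit without an offset and crosses, joined to them by a line, the fit with an offset for GC content and length. Dots and crosses lie together for Mcm6, Tyms, Birc5 and Kif20a and far apart for Gins1, Pcna, Mad2l1 and Cenpa.

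Among the G2/M genes, cyclin B1 and its kinase rose together. Ccnb1 (chr13:101548605-101556525, mm9, minus strand) had 196, 224 and 283 CPM in GATA2-GMP KO, against 31.3, 35.6 and 28.2 in GMP KO, and 260, 277 and 183 in GATA2-GMP WT, against 30.5, 32.7 and 21.1 in GMP WT. Ccnb1 rose by 2.89 in KO (SE 0.182, edgeR adjusted p 1.49e-06) and by 3.10 in WT (SE 0.250, edgeR adjusted p 2.50e-05), or 2.08 and 2.40 with the offset. Cdk1, the kinase that cyclin B switches on, had 423, 463 and 658 CPM in GATA2-GMP KO, against 119, 133 and 114 in GMP KO, and 751, 782 and 448 in GATA2-GMP WT, against 122, 129 and 109 in GMP WT. It rose by 2.09 in KO (SE 0.195, edgeR adjusted p 1.29e-05) and by 2.47 in WT (SE 0.246, edgeR adjusted p 6.74e-05), or by 1.75 and 2.24 with the offset. Both were above GMP in every GATA2-GMP library.

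Ccnb2 rose by 1.84 in KO (SE 0.170, edgeR adjusted p 1.18e-05) and by 1.44 in WT (SE 0.208, edgeR adjusted p 0.000439), and with the offset its WT value of 0.26 did not pass (edgeR adjusted p 0.122). Cdc25c, the phosphatase that activates CDK1, rose by 1.62 in KO and 1.47 in WT, and with the offset by 0.75 in KO, while its WT value of 0.65 did not pass (edgeR adjusted p 0.0668). Foxm1, the forkhead factor of G2/M genes, fell by 1.52 in KO (-1.52, SE 0.310, edgeR adjusted p 0.00167) and by 0.91 in WT (-0.91, SE 0.228, edgeR adjusted p 0.00759). With the offset it was -0.41 in KO (edgeR adjusted p 0.119) and 0.14 in WT, so the sign in WT turned; its exons overlap a gene on the same strand. Ccna2 fell by 0.87 in KO (-0.87, SE 0.157, edgeR adjusted p 0.000770) and did not pass in WT (0.14, edgeR adjusted p 0.598), and Cdc20 fell by 0.94 in KO (-0.94, SE 0.149, edgeR adjusted p 0.000338) and did not pass in WT (0.01, edgeR adjusted p 0.957). With the offset Ccna2 had -1.28 in KO and -0.15 in WT, and Cdc20 -0.92 in KO and -0.09 in WT, with the same calls. The test of that difference is the interaction given above, which neither gene passed.

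The mitotic kinases and checkpoint genes were mixed, with 2 of 6 higher and 1 lower in either genotype. Mad2l1, the checkpoint protein MAD2 (chr6:66485384-66491027, mm9, plus strand), had 311, 303 and 490 CPM in GATA2-GMP KO, against 96.0, 98.0 and 88.3 in GMP KO, and 624, 570 and 338 in GATA2-GMP WT, against 101, 93.1 and 83.9 in GMP WT. It rose by 1.98 in KO (SE 0.207, edgeR adjusted p 2.59e-05) and 2.47 in WT (SE 0.255, edgeR adjusted p 7.99e-05). With its 40.8% GC, the offset lowered these to 0.24 (edgeR adjusted p 0.0423) and 0.82. Aurka, the kinase of spindle poles, rose by 1.56 in KO and 1.55 in WT, or by 0.92 and 0.90 with the offset. Plk1 fell by 0.34 in KO (-0.34, SE 0.132, edgeR adjusted p 0.0414) and by 0.45 in WT (-0.45, SE 0.160, edgeR adjusted p 0.0337). With the offset Plk1 had 0.15 in KO and -0.07 in WT, and each call was lost in 4 of the 6 fits that left out a library (edgeR adjusted p 0.0645 to 0.133 in KO and 0.0626 to 0.134 in WT).

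Aurkb had 142, 134 and 113 CPM in GATA2-GMP KO and 116, 116 and 113 in GATA2-GMP WT, close to its GMP values above (log2 fold change -0.05 in KO and -0.03 in WT, edgeR adjusted p 0.723 and 0.850). With the offset it was lower, by -0.52 in KO and -0.53 in WT (edgeR adjusted p 0.00357 and 0.00201). Bub1 and Bub1b, kinases of the spindle checkpoint, did not pass: Bub1 had 0.22 in KO and 0.17 in WT (edgeR adjusted p 0.227 and 0.350), and Bub1b -0.23 and -0.38 (edgeR adjusted p 0.386 and 0.354). With the offset Bub1 passed as lower, with -0.49 in KO and -0.41 in WT (edgeR adjusted p 0.0182 and 0.0187), and Bub1b had -0.12 and -0.25 and did not pass. Without the offset Bub1 passed as higher in KO when GATA2-GMP KO 3 was left out (0.32), so its sign is not settled, and Bub1b passed as lower in WT without GATA2-GMP WT 3 (-0.82).

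Of 9 spindle, centromere and chromosome proteins 7 rose in either genotype. Nusap1, a protein that bundles spindle microtubules (chr2:119444034-119476980, mm9, plus strand, with exons that overlap Oip5), had 354, 362 and 599 CPM in GATA2-GMP KO, against 72.1, 88.3 and 67.9 in GMP KO, and 448, 466 and 314 in GATA2-GMP WT, against 79.2, 81.7 and 63.8 in GMP WT. Nusap1 rose by 2.53 in KO (SE 0.238, edgeR adjusted p 1.33e-05) and 2.46 in WT (SE 0.213, edgeR adjusted p 3.49e-05), or 1.90 and 1.96 with the offset. Birc5 rose by 1.89 in KO and 2.45 in WT (1.72 and 2.40 with the offset), Kif20a, a kinesin of cytokinesis whose exons overlap Cdc23, by 1.56 and 1.24 (1.54 and 1.28), Cenpe, the kinesin of kinetochores, by 1.21 and 1.45 (1.42 and 1.76), and Tpx2, the activator of Aurora A on the spindle, by 0.89 and 1.22 (1.10 and 1.49). These 4 moved little with the offset.

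Top2a had 1483, 1423 and 1023 CPM in GATA2-GMP KO, against 607, 786 and 617 in GMP KO, and 956, 884 and 1889 in GATA2-GMP WT, against 643, 785 and 588 in GMP WT. It rose by 0.98 in KO (SE 0.195, edgeR adjusted p 0.00147) and by 0.89 in WT (SE 0.314, edgeR adjusted p 0.0330), or by 0.96 in both with the offset. Its WT call was lost when any 1 GMP WT library was left out (edgeR adjusted p 0.0535 to 0.118), and a snoRNA lies in its exons. Cenpa, the histone H3 variant of centromeres, rose by 1.26 in KO and 1.35 in WT, but has a short transcript of 1354 bases and turned to -0.31 and -0.19 with the offset. Kif11, the kinesin that pushes spindle poles apart, had 0.15 in KO and 0.12 in WT and did not pass, and with the offset it had -0.04 and 0.04. Mki67 did not pass either, with -0.24 in KO and 0.24 in WT (edgeR adjusted p 0.376 and 0.296). With the offset Mki67 was higher in WT (0.89, edgeR adjusted p 0.000385), and its value in KO was 0.29 (edgeR adjusted p 0.136).

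Counted over both genotypes and both fits, 15 members rose and 3 fell in all 4 tests. Those that rose were 5 of 18 S-phase genes, namely Cdc6, Rrm1, Rrm2, Tyms and Ccne2, and 10 of 22 G2/M genes, namely Ccnb1, Cdk1, Aurka, Mad2l1, Tpx2, Kif20a, Nusap1, Birc5, Cenpe and Top2a. Those that fell were Mcm2, Mcm6 and Cdt1, all S-phase genes. Of the 11111 genes in all 4 tests 22.7% rose in all and 25.3% fell in all. With the offset alone 34.8% of all genes rose and 41.1% fell in KO, and 31.4% rose and 37% fell in WT.

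The balance of S-phase and G2/M transcripts was read from the mean over members of log2(CPM + 0.5). Each gene was taken relative to its mean over the 12 libraries. The S-phase mean was -0.013 ± 0.110 in GATA2-GMP KO, 0.136 ± 0.131 in GATA2-GMP WT, -0.065 ± 0.056 in GMP KO and -0.058 ± 0.014 in GMP WT (SD, n = 3 each). The G2/M mean was 0.416 ± 0.037 in GATA2-GMP KO, 0.477 ± 0.047 in GATA2-GMP WT, -0.391 ± 0.091 in GMP KO and -0.502 ± 0.148 in GMP WT (SD, n = 3 each). The stages were thus further apart in the G2/M genes than in the S-phase genes. These levels carry no offset for GC content and length. With that offset the G2/M median log2 fold change went from 1.09 to 0.46 in KO and from 1.23 to 0.73 in WT. The S-phase median went from 0.15 to 0.05 in KO and from 0.32 to 0.18 in WT. Kit and stage cannot be told apart in this balance. S phase minus G2/M was -0.447, -0.348 and -0.492 in GATA2-GMP KO and -0.425, -0.446 and -0.153 in GATA2-GMP WT, against 0.299, 0.297 and 0.382 in GMP KO and 0.407, 0.311 and 0.614 in GMP WT. Every GATA2-GMP library was below every GMP library, and KO and WT overlapped within GATA2-GMP; no p is given, since members are not replicates.

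In summed CPM, which the abundant genes dominate, the S-phase genes came to 4757 to 5862 in GATA2-GMP KO, 5067 to 7056 in GATA2-GMP WT, 4110 to 4324 in GMP KO and 4074 to 4214 in GMP WT. The G2/M genes came to 6066 to 6138 in GATA2-GMP KO, 6266 to 6801 in GATA2-GMP WT, 3158 to 3666 in GMP KO and 2845 to 3494 in GMP WT. The sum of the replication genes was above GMP in all GATA2-GMP libraries, although 4 of these genes fell. Rrm2 alone gave 1304 to 2109 CPM of it in GATA2-GMP, against 180 to 192 CPM in GMP. With Rrm2 left out, the sum in GATA2-GMP KO 1, KO 3, WT 1 and WT 2 was below that of every GMP library. In GATA2-GMP KO 2 and WT 3 it stayed above.

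The other genes of the pathways also went both ways. Of 48 other replication genes 19 were higher and 16 lower in KO (median 0.05), and 18 higher and 13 lower in WT (median 0.11). Over all genes tested 38.6% were higher and 40% lower in KO, and 34.1% were higher and 36.4% lower in WT. The counts of higher replication genes are close to these shares. Pold1, the catalytic subunit of DNA polymerase delta, fell most without the offset: it had 20.9 ± 6.64 CPM in GATA2-GMP KO and 196 ± 4.99 in GMP KO, and 23.2 ± 6.33 in GATA2-GMP WT and 182 ± 2.78 in GMP WT (SD, n = 3 each). For Pold1 this was a log2 fold change of -3.22 in KO (SE 0.234, edgeR adjusted p 3.13e-06) and -2.96 in WT, or -0.76 and -0.64 with the offset. Pola2, a subunit of the polymerase that starts each strand, fell, with -2.32 in KO and -2.23 in WT, or -1.98 and -1.95 with the offset, which is further than Pold1. Rpa3, a subunit of the single-strand binding protein, rose by 2.57 in KO and 2.77 in WT, but with the offset it had -0.43 and -0.20. With the offset the counts were 8 higher and 24 lower in KO, and 9 higher and 20 lower in WT. Over all genes these shares with the offset were 34.8% and 41.1% in KO, and 31.4% and 37% in WT.

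Of 53 other mitosis genes 33 were higher and 9 lower in KO (median 0.94), and 35 higher and 9 lower in WT (median 0.92). Over all genes tested 38.6% were higher and 40% lower in KO, and 34.1% were higher and 36.4% lower in WT. Pttg1 encodes securin, whose destruction the anaphase-promoting complex starts. It had 409 ± 108 CPM in GATA2-GMP KO and 27.2 ± 5.73 in GMP KO, and 403 ± 146 in GATA2-GMP WT and 23.8 ± 7.22 in GMP WT (SD, n = 3 each). Its log2 fold changes were 3.92 in KO and 4.09 in WT, or 2.59 and 2.86 with the offset. Lmnb1, lamin B1 of the nuclear envelope, went the other way, with 8.71 ± 1.24 CPM in GATA2-GMP KO and 427 ± 12.4 in GMP KO, and 11.8 ± 0.818 in GATA2-GMP WT and 399.7 ± 16.5 in GMP WT (SD, n = 3 each; -5.60 and -5.08, or -5.39 and -4.88 with the offset). Kifc1, a kinesin of spindle poles, had log2 fold changes of -3.98 in KO and -3.70 in WT, or -3.09 and -2.91 with the offset. With the offset 29 of 52 genes rose and 14 fell in KO, and 30 rose and 10 fell in WT. The shares over all genes with the offset were 34.8% and 41.1% in KO, and 31.4% and 37% in WT.

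Among the G1 cyclins, CDKs, pocket proteins and E2F and MYC genes 6 of 26 were higher and 11 lower in KO, and 8 of 27 higher and 12 lower in WT (median -0.30 in KO and -0.21 in WT). Over all genes tested 38.6% were higher and 40% lower in KO, and 34.1% were higher and 36.4% lower in WT. Ccnd1, cyclin D1, fell, with log2 fold changes of -3.21 in KO and -3.09 in WT, and so did Cdk6, its kinase, with -2.96 and -2.84; with the offset these were -3.02 and -2.83 for Ccnd1 and -2.89 and -2.70 for Cdk6. Mybl2 had 8.60 ± 0.817 CPM in GATA2-GMP KO and 87.9 ± 6.53 in GMP KO (SD, n = 3 each; log2 fold change -3.34, or -2.17 with the offset), and E2f2 rose by 2.71 in WT, or by 4.16 with the offset. Of 16 tested CDK inhibitors and antiproliferative genes 12 were higher and 3 lower in KO, and 10 higher and 1 lower in WT, beside the same shares over all genes. Cdkn1a, the CDK inhibitor p21, had 177 ± 19.4 CPM in GATA2-GMP KO and 17.2 ± 3.18 in GMP KO, and 215 ± 25.5 in GATA2-GMP WT and 17.3 ± 2.92 in GMP WT (SD, n = 3 each; log2 fold changes 3.38 and 3.64, or 3.26 and 3.44 with the offset). Cdkn2b, the CDK4 and CDK6 inhibitor p15, had 2.22 ± 1.26 CPM in GATA2-GMP KO and 1.47 ± 0.477 in GATA2-GMP WT (SD, n = 3 each), against no read in any GMP library. Cdkn2d, the CDK4 and CDK6 inhibitor p19, rose by 3.17 in KO, and Trp53inp1, a target of p53, by 3.30 in WT, or by 2.65 and 3.14 with the offset. The stage calls named from these lists held in 6 of 6 fits that left out a library. These genes were picked as the called ones with the largest fold changes, so this adds little. Leaving out a library also cannot bear on the kit, which differs between the stages in every library.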

How the data were processed

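Polyadenylated RNA was measured in 12 libraries, 3 in each of 4 groups. The values are raw counts of reads per gene symbol that the authors deposited, 1 table per library, not normalized as far as their values show (they are whole, and each library has its own sum). Per the submitters' processing notes, the tools were STAR 2.3.0, HTSeq, SAMtools 0.1.14 and DESeq, on build mm9; their roles, the strand setting and the annotation are not given in the sources used here. The 5 counter rows, 55.8 to 66.5% of records per library, were set aside. They hold records not assigned to a gene: no feature, ambiguous, low alignment quality, not aligned or not uniquely aligned. Of 27 gene names that a spreadsheet had turned into dates, 23 were restored and 4 left out, which left 23362 genes.

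The main test was that of edgeR 4.0.16 under R 4.3.3 (filterByExpr, TMM, estimateDisp, glmQLFit with robust=TRUE, glmQLFTest, Benjamini-Hochberg over all genes tested, threshold 0.05). Genotype was tested within each stage and stage within each genotype, on 6 libraries each, and their interaction over all 12. A positive log2 fold change means a higher level in KO, or in GATA2-GMP; its standard error (SE) comes from the F statistic, as its size over the root of F. The members and lists were chosen with earlier results of these data known. All 40 genes are accounted for. Given in full were members called between genotypes, with or without a replicate block, and per role and stage comparison the member with the largest fold change; from each other list, up to 3 called genes with the largest fold change. Mcm5, Ccna2, Ccne1 and other members given in every library beyond these were picked after their values were seen.

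To see whether a number marks a pair of libraries, deviations from the group means were correlated across genes. In GMP the same numbers gave 0.264, 0.193 and 0.127, each above 0.1, so the block is reported there, from the data and not from the labels. Deviations from a group mean cancel within the group, so some matching of libraries tends to come out positive. These values therefore do not settle whether the libraries were paired. In GATA2-GMP they gave -0.129, -0.233 and -0.41, and between stages at most 0.037, so no pairing was assumed.

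Alternatives were upper quartile scaling, no filter on low counts, the replicate block, all 12 libraries in 1 fit, DESeq2 1.42.0, and each library left out in turn. Added after the data were seen were an offset per library for GC content and length (natural splines with 5 degrees of freedom, on the longest protein-coding GENCODE vM1 transcript, mm9), that offset with the block, and each library's length slope as a covariate. Exons of 11 members overlap another gene (Mcm7, Cdc45, Gins2, Tyms, Ccne2, Ccna2, Cdc20, Foxm1, Kif20a, Nusap1 and Top2a). The main test was also run on counts simulated from its own fitted means and spread, with no effect of transcript length or GC content. The offset fit was run on counts given the same bias that it removes. These runs could not show how either fit fares with other structure in the libraries. At 1 CPM a library held 11.2 to 43.5 reads. Of the markers, Siglecf was not found under that name.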

Additional observations from a re-analysis of the deposited data

How the results depend on the processing

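Depth does not limit the members, but 3 libraries a group, the spread of the GATA2-GMP libraries and the GC content and length of transcripts do. For KO against WT in GMP the 381 genes called were 964 with the replicate block, 895 with block and offset, 17 with all 12 libraries in 1 fit and 209 to 398 with a library left out; the 1 member called was 4 with the block, 4 with block and offset, 2 without the filter, 2 with DESeq2 and 0 with all 12. Its G2/M median of 0.06 was -0.0060 (without GMP WT 3) to 0.144 (without GMP WT 2), and its S-phase median of -0.02 was -0.025 to -0.0014 with a library left out. For KO against WT in GATA2-GMP the 44 genes were 294 without the filter, 3 with the replicate block, 1461 with all 12, 567 with DESeq2, 293 with the offset, 1394 with the length slope and 0 to 525 with a library left out; no member was called, against 4 with all 12, 2 with DESeq2, 8 with the length slope and 0 to 1 with a library left out. Its G2/M median of 0.04 was -0.070 as a mean and -0.11 to 0.029 with a library left out, and its S-phase median of -0.15 was -0.30 to -0.077 with a library left out. The interaction's 11 genes were 40 without the filter, 0 with the replicate block, 794 with DESeq2, 194 with the offset and 0 to 1179 with a library left out; its members, none, were 3 with DESeq2 and 0 to 4 with a library left out.

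Between stages in WT the S-phase median of 0.32 was 0.13 with upper quartile scaling, 0.18 with the offset and 0.25 to 0.50 with a library left out, and the G2/M median of 1.23 was 1.04, 0.73 and 1.08 to 1.32 in the same order and 1.02 as a mean. In KO the S-phase median of 0.15 was -0.0071 with upper quartile scaling, 0.055 without the filter, 0.050 with the offset and 0.071 (without GATA2-GMP KO 2) to 0.18 with a library left out, and the G2/M median of 1.09 was 0.942, 0.996 and 0.464 under those first 3, 0.84 as a mean and 1.003 to 1.18 with a library left out. With the offset 4 called members changed sign: Foxm1 (0.14) and Cenpa (-0.19) in WT, and Plk1 (0.15) and Cenpa (-0.31) in KO. The S-phase minus G2/M level of GMP KO was 0.44 with a median over members in place of a mean. The cause of these shifts was not tested. The replicate block left 25 members called between stages in WT and 26 in KO. The genes called between stages, 9777 in KO and 8638 in WT, stayed within 1.5 times under all alternatives run.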
